A study of Mus musculus with 4 samples.

Results

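The Wnt pathway genes described here are 41 of 50 listed ligands, secreted modulators, receptors, transducers, feedback targets and planar polarity genes, out of 13289 genes in the deposited table. They were taken from the table by gene symbol, with frizzled receptors left out. The selection rule uses no measured value, but the list was drawn up with earlier results of these data known. The other 9 listed genes, Wnt3a, Wnt8b, Rspo1, Wif1, Notum, Ror1, Lgr5, Rnf43 and Sp5, were not analysed here. RNA-seq of polyadenylated RNA was made from mouse cerebral cortex at embryonic day 15 (E15), in 2 control libraries, titled WT, and 2 Lhx2 cKO libraries. cKO is read as conditional knockout of Lhx2, which encodes a LIM-homeodomain transcription factor of cortical progenitors. The labels used here do not give the Cre driver, the allele, the strain, the sex or litter of the embryos, or whether tissue of several embryos was pooled. P-values therefore measure only the spread between these libraries, which may be technical. In edgeR the spread of each gene is drawn strongly toward a trend over all genes, so it is not the gene's own spread alone.

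Wnt proteins are secreted, lipid-modified ligands. In the canonical branch they bind frizzled receptors with the co-receptors Lrp5 or Lrp6, which stops the Axin, Apc and Gsk3 complex from destroying beta-catenin, and beta-catenin then acts with TCF/LEF factors on target genes such as Axin2. In the planar polarity branch, Vangl, Prickle, Celsr and Daam proteins organise the orientation and shape of cells without beta-catenin. In the embryonic cortex, Wnt signals from the medial edge and from progenitors and neurons are known to bear on patterning, progenitor division, vessel growth and axon growth.

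Library totals ranged from 22294237 to 24609627 counts, and 3 counts, taken as the floor of detection, corresponded to 0.122 to 0.135 CPM, the count scaled to the library total. Lhx2 was at 311 and 293 CPM in control and at 244 and 241 CPM in Lhx2 cKO, a log2 change (Lhx2 cKO minus control) of -0.31 with SE 0.098 and an adjusted p of 0.0191 from the quasi-likelihood test of edgeR. Its mean was 302 ± 12.7 CPM in control and 242 ± 2.34 CPM in Lhx2 cKO (SD, n = 2), so the gene's count fell but stayed high. Counts per gene do not show whether single exons of Lhx2 were lost, or how much protein remained. The call for Lhx2 was lost without control 1 (adjusted p 0.176), Lhx2 cKO 1 (0.102) or Lhx2 cKO 2 (0.0538).

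Of the 41 Wnt pathway genes, 18 (43.9%) were called, meaning that edgeR's adjusted p was under 0.05: 11 rose and 7 fell in Lhx2 cKO. Over all 13288 genes tested the share called was 20.8%, with 11.6% higher and 9.17% lower. The median log2 change of the 41 genes was -0.006, beside 0.003 for all genes tested, so rises and falls balanced within the pathway. For 31 of the 41 genes the CPM ranges of the groups were separate, against 57.5% of all genes tested. The list leaves out some polarity genes, such as Celsr3. Within it, calls were most frequent among planar polarity genes (5 of 5), ligands (4 of 6) and secreted modulators (3 of 5). They were fewer among transducers (2 of 10), receptors and co-receptors (1 of 5), TCF/LEF factors (1 of 4) and feedback targets (1 of 4), but the difference between these roles was not tested. Grouped more broadly, 8 of 13 ligands, modulators and secretion genes, 9 of 24 receptors, transducers, TCF/LEF factors and polarity genes, and 1 of 4 feedback targets were called. Without control 1 the calls numbered 12, with 7 higher and 5 lower. In bulk tissue, fewer cells of a type and less RNA per cell cannot be told apart.

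**Figure D1:**
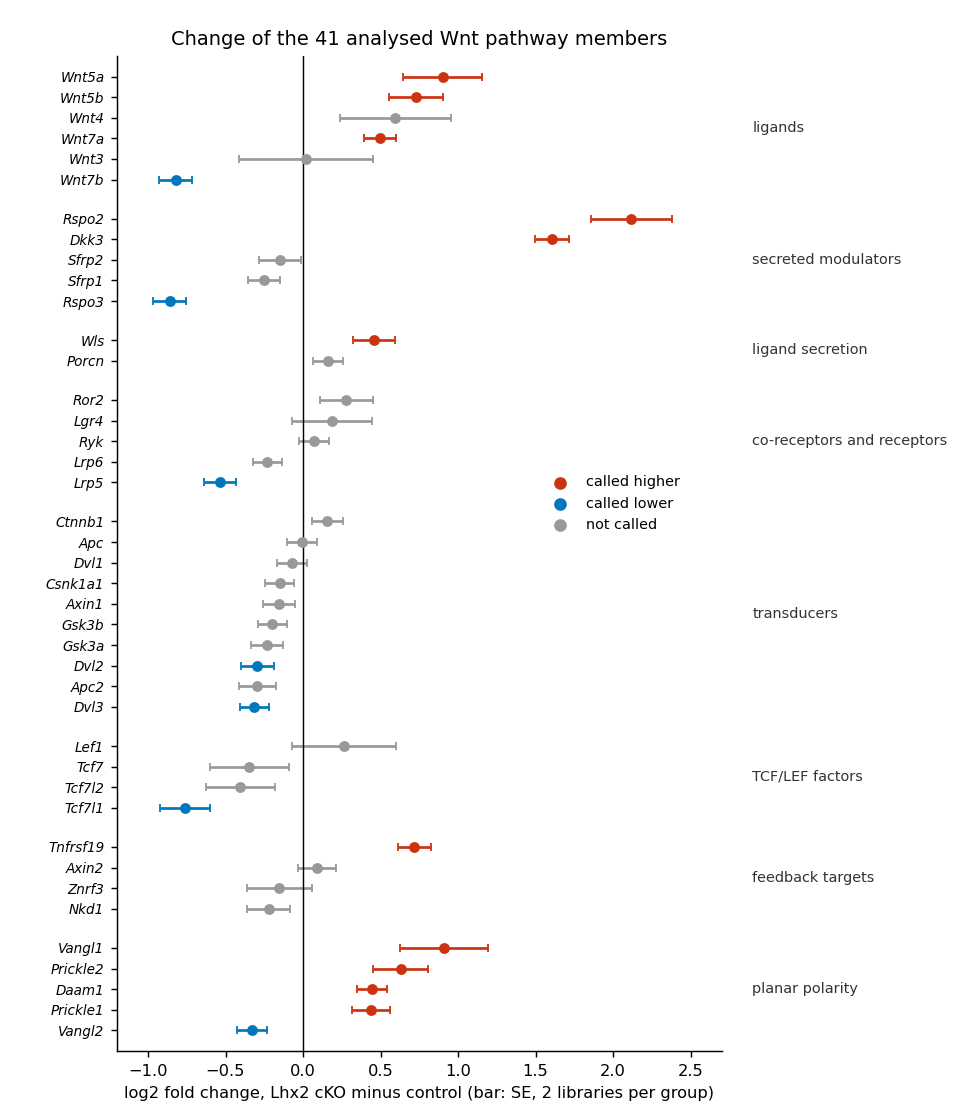
Log2 change (Lhx2 cKO minus control, x axis) of the 41 analysed genes by role, with the SE as bars and 2 libraries per group. Rspo2 (2.12) and Dkk3 (1.61) lie farthest to the right, Rspo3 (-0.86) and Wnt7b (-0.82) farthest to the left, and the 10 transducers lie between -0.31 and 0.16.

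Among the ligands, Wnt7b fell while Wnt7a, Wnt5a and Wnt5b rose. Wnt7b (ENSMUSG00000022382.16) encodes a ligand of cortical neurons and progenitors that is also a known vessel-guiding signal of the brain. It was at 616 and 538 CPM in control and at 304 and 344 CPM in Lhx2 cKO. Both Lhx2 cKO libraries were below both control libraries, from a mean of 577 ± 55.0 to 324 ± 28.3 CPM (SD, n = 2). The log2 change was -0.82 (SE 0.109, adjusted p 1.69e-07 in edgeR), a 1.77-fold fall. The antisense gene AU022754 shares 324 of the 4898 exon bases of Wnt7b, and the use of strand in counting is not given in the sources used here, so reads over those bases cannot be told apart.

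Wnt7a (ENSMUSG00000030093.8), the close relative that acts with Wnt7b on brain endothelium, was at 42.3 and 48.6 CPM in control and at 60.8 and 66.5 CPM in Lhx2 cKO. The groups did not overlap, and the log2 change was 0.50 (SE 0.104, adjusted p 3.49e-04 in edgeR). Per deposited gene length (RPKM, CPM per kilobase), the level of Wnt7b was 9.44 and 7.18 times that of Wnt7a in the control libraries. In the Lhx2 cKO libraries it was 3.24 and 3.35 times that of Wnt7a. The pair therefore stood closer together in both Lhx2 cKO libraries, with Wnt7b still the more abundant. Of the summed RPKM of the 6 ligands, Wnt7b made up 88% and 85% in the control libraries, against 70.7% and 72.1% in Lhx2 cKO. That sum was 143 and 129 RPKM in control and 87.8 and 97.4 RPKM in Lhx2 cKO, lower in both Lhx2 cKO libraries.

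**Figure D2:**
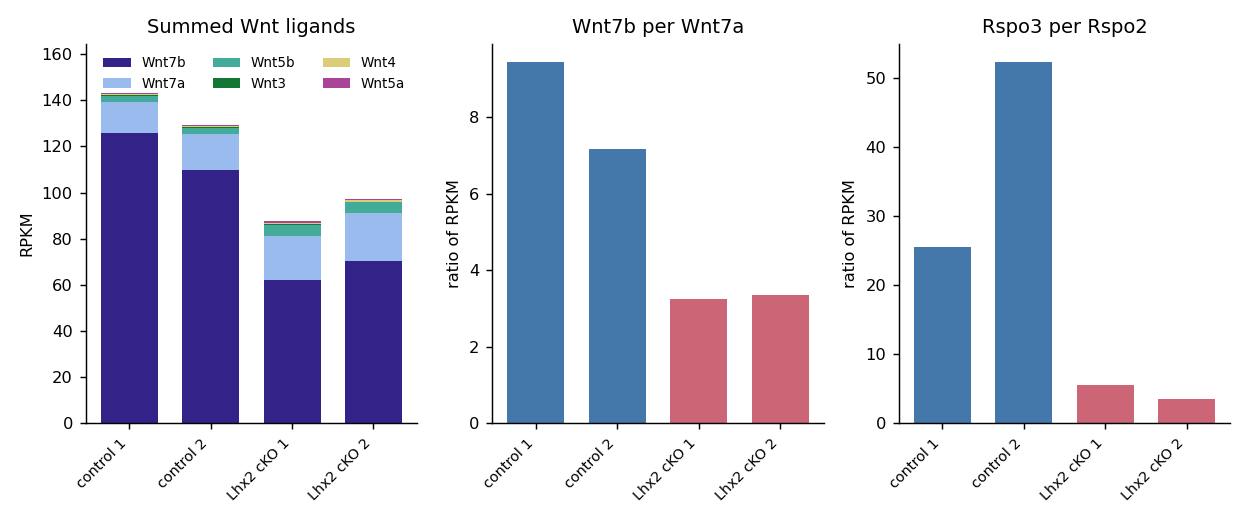
Left, stacked RPKM of the 6 ligands in each library; middle and right, ratio of RPKM of Wnt7b to Wnt7a and of Rspo3 to Rspo2, 1 bar per library (blue control, red Lhx2 cKO). The Wnt7b to Wnt7a ratio is at least 7.18 in control and at most 3.35 in Lhx2 cKO, and the Rspo3 to Rspo2 ratio is at least 25.5 in control and at most 5.53 in Lhx2 cKO.

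Wnt5a and Wnt5b are ligands best known for signalling without beta-catenin, and per length both were far less abundant than Wnt7b, at 0.412 and 2.75 RPKM in control against 118 RPKM. Wnt5b (ENSMUSG00000030170.15) was at 7.31 and 7.28 CPM in control and at 11.9 and 12.1 CPM in Lhx2 cKO. Replicates were nearly equal and the groups were apart, with a log2 change of 0.73 (SE 0.176, adjusted p 0.00199 in edgeR). Wnt5a (ENSMUSG00000021994.16) was at 2.80 and 3.64 CPM in control and at 6.32 and 5.63 CPM in Lhx2 cKO. Its log2 change was 0.90 (SE 0.255, adjusted p 0.00854 in edgeR), and both Lhx2 cKO libraries were above both control libraries. The call was lost without control 1 (log2 change 0.74, adjusted p 0.101) and without Lhx2 cKO 1 (0.85, adjusted p 0.0501). Wnt4, at 1.54 and 2.0 CPM in control and 2.83 and 2.50 CPM in Lhx2 cKO, did not pass the test (0.59, 95% interval -0.13 to 1.32). Wnt3 was at 1.26, 1.43, 1.70 and 1.02 CPM in control 1, control 2, Lhx2 cKO 1 and Lhx2 cKO 2, with overlapping groups. At 24 to 38 counts per library, the 95% interval of the log2 change of Wnt3 ran from -0.86 to 0.89.

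The R-spondins, secreted proteins that strengthen Wnt signalling by keeping frizzled receptors at the cell surface, moved in opposite directions. Rspo2 (ENSMUSG00000051920.8) was at 3.17 and 1.51 CPM in control, from 78 and 37 counts, and at 8.43 and 11.8 CPM in Lhx2 cKO, from 188 and 278 counts. This was the largest rise among the 41 genes, with a log2 change of 2.12 (SE 0.262, adjusted p 3.77e-08 in edgeR), or 4.34-fold. It was 2.77 without control 1 and 1.66 without control 2, so the size of the rise depended on which control library was used while the call did not. Rspo3 (ENSMUSG00000019880.11), also known as a signal of the cortical hem, was at 48.8 and 47.8 CPM in control and at 28.2 and 24.8 CPM in Lhx2 cKO. The groups were well apart, with a log2 change of -0.86 (SE 0.108, adjusted p 5.55e-08 in edgeR), the largest fall among the 41 genes. Exons of the antisense gene Gm48159 cover 404 of the 3090 exon bases of Rspo3. Per length, Rspo3 was 25.5 and 52.3 times as abundant as Rspo2 in control and 5.53 and 3.48 times in Lhx2 cKO.

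Of the other 3 secreted modulators among the 41 genes, Dkk3 was called and Sfrp1 and Sfrp2 were not. Dkk3 (ENSMUSG00000030772.7), a divergent member of the Dickkopf family, was at 22.6 and 27.4 CPM in control and at 70.7 and 80.1 CPM in Lhx2 cKO. Means were 25.0 ± 3.34 CPM in control and 75.4 ± 6.68 CPM in Lhx2 cKO (SD, n = 2). The log2 change was 1.61 (SE 0.110), with the smallest adjusted p of the 41 genes, 6.07e-15 in edgeR. Sfrp1, a secreted frizzled-related protein that binds Wnts in the extracellular space, was the most abundant modulator per length (99.2 RPKM in control), at 411 and 456 CPM in control and 357 and 365 CPM in Lhx2 cKO. The groups of Sfrp1 did not overlap, but its log2 change of -0.25 missed the threshold in edgeR (adjusted p 0.070) and passed it in DESeq2 (adjusted p 0.0321). Sfrp2 was at 19.0 and 24.9 CPM in control and 19.8 and 19.4 CPM in Lhx2 cKO, with overlapping groups and an adjusted p of 0.476 in edgeR.

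The secretion genes differed in their result. Wls, which carries lipidated Wnts to the cell surface, was at 15.9 and 16.1 CPM in control and at 22.5 and 21.2 CPM in Lhx2 cKO, a log2 change of 0.46 (SE 0.135, adjusted p 0.0114 in edgeR). That call was lost without control 1 (adjusted p 0.0567), control 2 (0.0614) or Lhx2 cKO 2 (0.0531), with log2 changes from 0.44 to 0.46. Porcn, the acyltransferase that lipidates Wnts, was at 121 and 134 CPM in control and 148 and 135 CPM in Lhx2 cKO, with a 95% interval of the log2 change from -0.03 to 0.35.

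**Figure D3:**
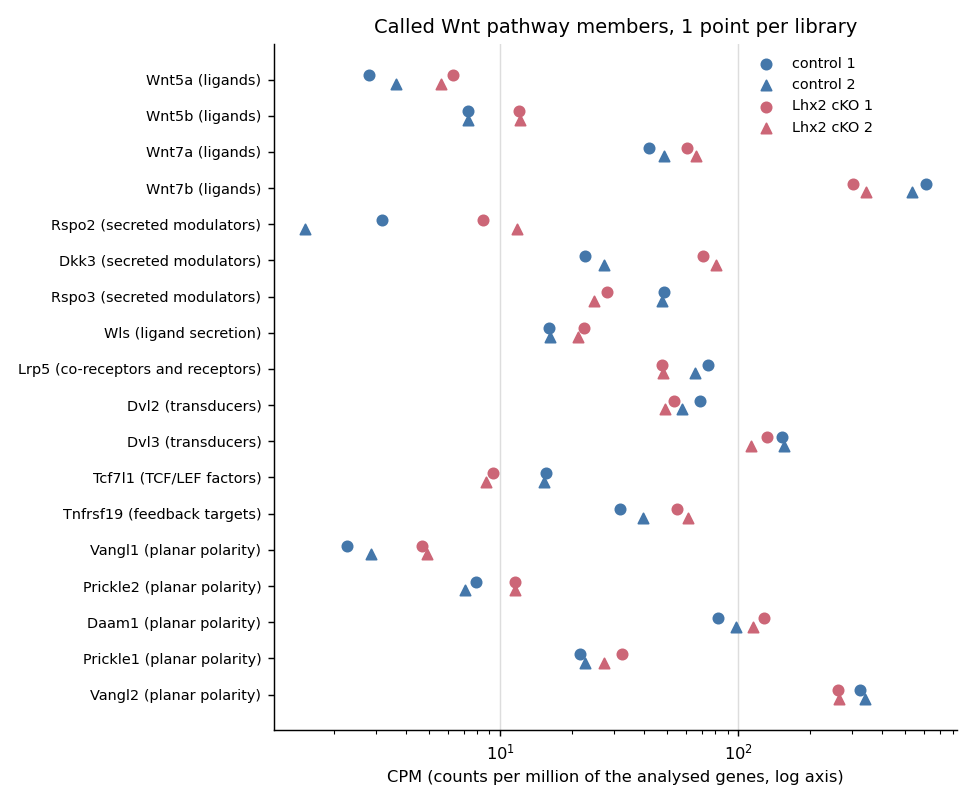
CPM (log axis) of the 18 called genes in each library, blue for control and red for Lhx2 cKO, with circles for replicate 1 and triangles for replicate 2. For each of these 18 genes both red points lie on 1 side of both blue points, as for 57.5% of all genes tested. The 18 were selected by adjusted p on these same libraries, so their separation is no further support. The widest gaps are those of Rspo2 and Dkk3.

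At the membrane, 1 of 5 analysed receptors was called (20.0%, near the 20.8% of all genes tested). Lrp5 (ENSMUSG00000024913.17), a co-receptor of canonical signalling, was at 74.3 and 65.9 CPM in control and at 47.8 and 48.4 CPM in Lhx2 cKO. It fell with a log2 change of -0.53 (SE 0.103, adjusted p 1.31e-04 in edgeR), and its groups did not overlap. Its homologue Lrp6 was at 145 and 165 CPM in control and 137 and 126 CPM in Lhx2 cKO, a log2 change of -0.23 that missed the threshold (adjusted p 0.0785 in edgeR, 95% interval -0.42 to -0.04). Per length, Lrp6 stood at 11.4 RPKM and Lrp5 at 7.20 RPKM in control, and at 9.61 and 4.94 RPKM in Lhx2 cKO. Ror2 and Ryk, receptors that bind Wnts outside the canonical branch, had log2 changes of 0.28 and 0.07, and Lgr4, an R-spondin receptor, 0.19, with adjusted p between 0.271 and 0.667. Lgr4 was low, at 3.37 to 5.40 CPM over the 4 libraries.

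Of the 10 transducers, 2 were called, both lower (20.0%, near the 20.8% of all genes tested). A negative log2 change was found for 9 of the 10, and for 6583 of all 13288 genes tested. Dvl3, a Dishevelled scaffold that relays the signal from frizzled receptors, was at 152 and 155 CPM in control and at 132 and 113 CPM in Lhx2 cKO (log2 change -0.31, SE 0.095, adjusted p 0.0143 in edgeR). Dvl3 lost its call without control 1 (adjusted p 0.0521) and without Lhx2 cKO 2 (0.207). Dvl2 was at 69.0 and 57.9 CPM in control and at 53.8 and 49.3 CPM in Lhx2 cKO (log2 change -0.29, adjusted p 0.0408 in edgeR). Dvl2 was at -0.14 without control 1 (adjusted p 0.516), was not called without either Lhx2 cKO library (0.0657 and 0.184) or in DESeq2 (0.0999), and shares 1151 of 6298 exon bases with Acadvl on the other strand. Dvl1 did not pass the test (-0.07).

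The destruction complex and beta-catenin did not pass the test. Ctnnb1, which encodes beta-catenin, was at 304 and 359 CPM in control and at 373 and 361 CPM in Lhx2 cKO, with a 95% interval of the log2 change from -0.05 to 0.36. It shares 759 of 5192 exon bases with Ulk4 on the other strand. Apc2, the neural homologue of Apc, was the most abundant transducer per length, at 124 RPKM in control and 100.2 RPKM in Lhx2 cKO. Its CPM was 1571 and 1215 in the control libraries, against 1127 and 1135 in Lhx2 cKO, a log2 change of -0.29 with an adjusted p of 0.0802 in edgeR. It was called with library totals alone as the scaling (adjusted p 0.0375) and without control 2 (0.0113). Apc itself was at 205 to 225 CPM in all 4 libraries (log2 change -0.006). The scaffold Axin1 and the kinases Gsk3a, Gsk3b and Csnk1a1, which mark beta-catenin for destruction, had log2 changes from -0.23 to -0.15, none of them called with all libraries in edgeR. Exons of the antisense gene 9130221H12Rik cover 820 of the 2900 exon bases of Gsk3a. Gsk3a was called without control 2, at -0.43 (adjusted p 0.00299).

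Among the TCF/LEF factors, which bind the DNA of Wnt target genes, Tcf7l1 fell. Tcf7l1 (ENSMUSG00000055799.14), known mostly as a repressor of Wnt targets when beta-catenin is absent, was at 15.6 and 15.2 CPM in control and at 9.33 and 8.68 CPM in Lhx2 cKO. The groups were well apart, with a log2 change of -0.76 (SE 0.160, adjusted p 4.10e-04 in edgeR). Tcf7 (-0.35), Tcf7l2 (-0.40) and Lef1 (0.26) did not pass the test, with SEs from 0.223 to 0.335 on the log2 scale at 1.99 to 7.44 CPM. Per length, Tcf7l1 was the most abundant of the 4 factors in both groups, at 3.92 RPKM in control and 2.29 RPKM in Lhx2 cKO. The summed RPKM of the 4 factors was 6.51 and 6.80 in the control libraries, against 4.44 and 4.58 in Lhx2 cKO.

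Of the feedback targets, 1 of 4 was called (25.0%, near the 20.8% of all genes tested). How the lists were drawn bears on this share. Of 3 further targets analysed among the other pathway genes, 1 was called, Nrarp, lower at -1.08 on the log2 scale. Nkd2, the homologue of Nkd1, was also placed among the other pathway genes and was called higher (log2 change 0.55, adjusted p 0.0245 in edgeR). Axin2, a negative regulator that is a standard readout of canonical signalling, was at 21.8 and 25.4 CPM in control and at 25.2 and 24.6 CPM in Lhx2 cKO. The groups overlapped, and the log2 change of 0.09 had a 95% interval from -0.16 to 0.34 (adjusted p 0.660 in edgeR). Nkd1, an inhibitor of Dishevelled, was at 19.2 and 18.2 CPM in control and at 16.9 and 15.04 CPM in Lhx2 cKO (95% interval -0.51 to 0.06). Znrf3, a ubiquitin ligase that removes frizzled receptors, was at 6.30 and 8.22 CPM in control and at 5.88 and 7.03 CPM in Lhx2 cKO (95% interval -0.57 to 0.27). Tnfrsf19 (ENSMUSG00000060548.14), a TNF receptor family member also called Troy and known as a Wnt target in several tissues, was at 31.7 and 39.9 CPM in control and at 55.2 and 61.5 CPM in Lhx2 cKO. It rose with a log2 change of 0.72 (SE 0.109, adjusted p 2.62e-06 in edgeR), and its groups did not overlap.

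RefSeq promoter windows (GRCm38.p6), here the 250 bases before a start site, were at hand for 27 of the 41 genes and 11 of the 18 called ones. Among the called genes, Wnt5a, Wnt7b, Rspo2, Rspo3, Dkk3, Lrp5 and Vangl1 had no entry. The TCF/LEF motifs CTTTGAT and CTTTGTT were searched on both strands and counted separately, and a window with either was taken as a match. A match was present in 3 of 19 windows of called genes and in 5 of 44 windows of all members, against 8.06% of all 32851 windows. The other 2 member windows with a match, both with CTTTGTT, belong to genes that were not called and are not printed. The LIM-homeodomain motif TAATTA was in 0 of the 44 windows and in 4.84% of all windows. The 3 windows of called genes with a match are printed 5′ to 3′ beside that of Axin2, the readout that was not called, with the match in capitals. All 3 belong to genes that rose, as did 11 of all 18 called genes. Each is 1 of several annotated starts of its gene (2 for Tnfrsf19, 3 for Wnt5b and 4 for Prickle2). Which start was used in this tissue is not known from these counts. The window of Tnfrsf19 is chr14:61037988-61038237 on the minus strand, with CTTTGAT on its opposite strand. That of Wnt5b is chr6:119449387-119449636 and that of Prickle2 chr6:92567367-92567616, both on the minus strand. That of Axin2, chr11:108920099-108920348 on the plus strand, holds neither motif.
Tnfrsf19: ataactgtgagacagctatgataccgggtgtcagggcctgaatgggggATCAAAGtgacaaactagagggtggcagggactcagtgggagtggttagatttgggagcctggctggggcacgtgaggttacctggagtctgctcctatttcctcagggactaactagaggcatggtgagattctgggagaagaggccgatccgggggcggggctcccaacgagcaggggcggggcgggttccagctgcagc
Wnt5b: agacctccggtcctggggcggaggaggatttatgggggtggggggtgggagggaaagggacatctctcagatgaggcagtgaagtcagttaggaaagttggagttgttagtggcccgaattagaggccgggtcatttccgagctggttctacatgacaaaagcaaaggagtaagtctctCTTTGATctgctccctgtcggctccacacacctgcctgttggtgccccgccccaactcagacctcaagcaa
Prickle2: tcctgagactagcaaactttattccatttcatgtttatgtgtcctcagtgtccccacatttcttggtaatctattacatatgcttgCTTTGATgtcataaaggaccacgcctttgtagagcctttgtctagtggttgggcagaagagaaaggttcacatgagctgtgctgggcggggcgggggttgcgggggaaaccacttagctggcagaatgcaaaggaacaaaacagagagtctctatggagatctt
Axin2: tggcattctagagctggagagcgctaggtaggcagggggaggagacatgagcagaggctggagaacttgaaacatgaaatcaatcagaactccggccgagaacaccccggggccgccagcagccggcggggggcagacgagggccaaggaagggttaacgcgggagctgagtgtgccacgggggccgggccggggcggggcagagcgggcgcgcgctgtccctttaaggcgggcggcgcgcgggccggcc
These matches describe letters in the windows and say nothing of whether a factor binds there.

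All 5 genes placed in the planar polarity role were called, 4 higher and 1 lower. This share depends on how the lists were drawn, because further polarity genes were placed among the other pathway genes. Of those, Celsr1 (log2 change -1.22) and Celsr2 (-0.48) were called lower. Celsr3 (-0.28), Scrib (-0.15), Ptk7 (-0.19) and Daam2 (0.11) were not called, with adjusted p from 0.066 to 0.670 in edgeR. Vangl2, the main Vang-like membrane protein of the polarity pathway in neural tissue, was at 325 and 339 CPM in control and at 261 and 264 CPM in Lhx2 cKO, a log2 change of -0.33 (SE 0.097, adjusted p 0.0118 in edgeR). Its less abundant homologue Vangl1 (ENSMUSG00000027860.16) was at 2.28 and 2.86 CPM in control and at 4.66 and 4.91 CPM in Lhx2 cKO, a log2 change of 0.91 (SE 0.282, adjusted p 0.0169 in edgeR). The groups did not overlap for either gene. Per length, the level of Vangl2 was 146 and 121 times that of Vangl1 in control and 57.3 and 55.0 times in Lhx2 cKO.

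Prickle1 and Prickle2 encode cytoplasmic partners of the Vangl proteins. Prickle1 was at 21.6 and 22.7 CPM in control and at 32.5 and 27.3 CPM in Lhx2 cKO (log2 change 0.44, SE 0.121, adjusted p 0.00660 in edgeR). Prickle2 (ENSMUSG00000030020.14) was at 7.92 and 7.07 CPM in control and at 11.5 and 11.6 CPM in Lhx2 cKO (log2 change 0.63, SE 0.178, adjusted p 0.00826 in edgeR). Daam1, a formin that links Dishevelled to actin, was at 82.2 and 98.0 CPM in control and at 128 and 115 CPM in Lhx2 cKO (log2 change 0.44, SE 0.097, adjusted p 7.22e-04 in edgeR). Both Lhx2 cKO libraries were above both control libraries for these 3 genes. Of the 5 polarity genes, Daam1 kept its call whichever library was left out. The others lost it without 1 or more libraries: Vangl2 without Lhx2 cKO 1 (adjusted p 0.0977), Vangl1 without control 1 (0.142) or Lhx2 cKO 2 (0.141), Prickle1 without control 1 (0.0516) or Lhx2 cKO 1 (0.101), and Prickle2 without control 2 (0.0822) or Lhx2 cKO 2 (0.070).

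Outside the 41 genes, 57 of 78 other listed pathway genes were analysed, and 18 of them (31.6%) were called, 9 higher and 9 lower, against 20.8% of all genes. Celsr1, an atypical cadherin of the polarity pathway, fell from 362 and 383 CPM in control to 163 and 154 CPM in Lhx2 cKO (log2 change -1.22, SE 0.098, adjusted p 5.01e-13 in edgeR). Its homologue Celsr2 was at -0.48, the glypicans Gpc3 and Gpc4 at -1.33 and -0.72, and Nrarp, known as a target of both Notch and Wnt signalling, at -1.08 on the log2 scale. Among the rises, Dkk2, a Dickkopf family modulator of Lrp co-receptors, was at 2.48 and 1.39 CPM in control and at 6.23 and 5.93 CPM in Lhx2 cKO (log2 change 1.66, adjusted p 3.43e-05 in edgeR). Apcdd1, a Wnt inhibitor, was at 80.1 and 90.0 CPM in control and at 131 and 158 CPM in Lhx2 cKO (0.78, adjusted p 1.56e-07 in edgeR). Cxxc4 (0.98), Amer3 (0.48) and Draxin (0.45) were the other rises named by smallest p. Amer3 lost its call without Lhx2 cKO 2 (adjusted p 0.164), and Draxin without control 2 (0.102) or Lhx2 cKO 2 (0.0695). Without Lhx2 cKO 2, 4 of these genes were called higher and 8 lower.

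Markers of other cell types are given as summed CPM and as calls per list, beside the 20.8% of all genes called. Cell cycle markers fell (9 of 10 called, all lower), from a summed 399 and 466 CPM in control to 276 and 262 CPM in Lhx2 cKO, and intermediate progenitor markers fell in 5 of 7, from 779 and 795 to 489 and 490 CPM. Astrocyte markers were called in 7 of 7, 6 of them higher, from 312 and 342 to 645 and 699 CPM, and oligodendrocyte precursor markers were higher in 6 of 7, from 49.4 and 58.2 to 96.5 and 102 CPM. Radial glia markers were lower in 5 of 12 and higher in 1, at 858 and 928 CPM against 835 and 770 CPM. Endothelial markers, of cells known to respond to Wnt7a and Wnt7b, were higher in 6 of 10, at 221 and 279 CPM in control and 319 and 349 CPM in Lhx2 cKO. Neuron markers were higher in 2 of 8 and lower in 2, at 4628 to 4948 CPM over all libraries. Microglia markers were higher in 7 of 9 and lower in 1, from 119 and 122 to 237 and 251 CPM.

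Cajal-Retzius markers were higher in 4 of 7, from 334 and 377 to 505 and 608 CPM. Markers of interneurons and ventral telencephalon were called in 2 of 8 (25.0%, near the share of all genes), both higher, with a median log2 change of 0.14 and 3 of 8 negative. Their sum was at 248 and 223 CPM in control and 306 and 281 CPM in Lhx2 cKO. Pericyte and mural markers were higher in 1 of 6 and lower in 1, at 204 to 230 CPM. Meningeal markers were lower in 1 of 5 (Col1a1, named after its value was seen, at -3.00 on the log2 scale), with a median log2 change of 0.16 over the list and 3 of 5 positive. Their sum was at 52.7 and 53.4 CPM in control and 36.5 and 33.6 CPM in Lhx2 cKO. Red blood cell markers were lower in 5 of 7 and higher in 1, from 3132 and 2396 to 2178 and 1852 CPM. Of 11 markers of cortical hem and choroid plexus, 1, Wnt2b, was analysed here, at 1.87 and 1.88 CPM in control and 2.65 and 2.46 CPM in Lhx2 cKO, and it was not called. The part of these cell types in the changes of the Wnt pathway genes was not tested.

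**Figure D4:**
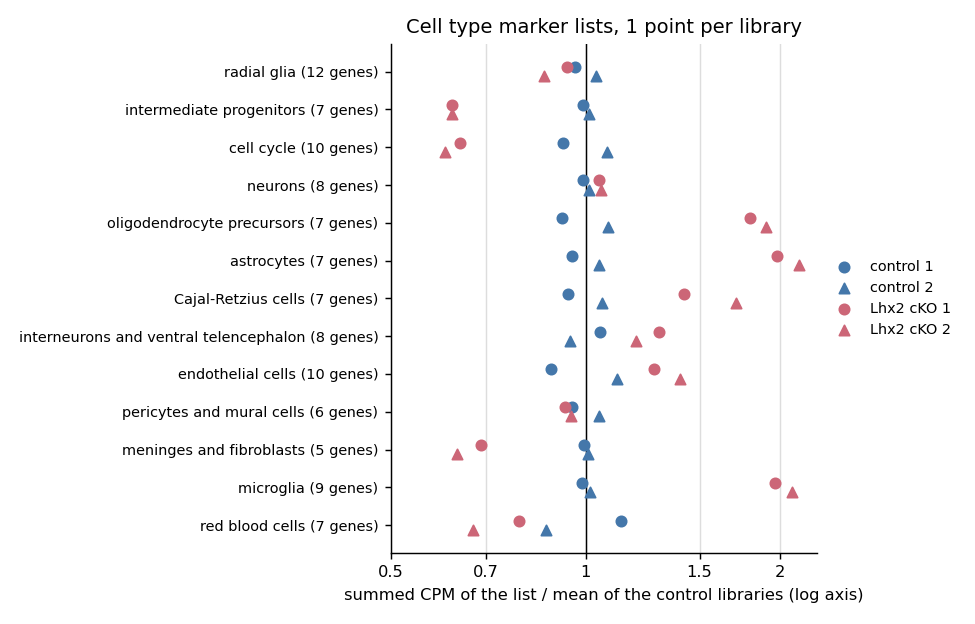
Summed CPM of 13 cell type marker lists in each library, divided by the mean of the control libraries (log axis), blue for control and red for Lhx2 cKO. The red points lie to the left for intermediate progenitor, cell cycle, meningeal and red blood cell markers. They lie to the right for astrocyte, oligodendrocyte precursor, microglia, Cajal-Retzius, endothelial and interneuron markers. The shifts of radial glia, neuron and pericyte markers are smaller.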

How the data were processed

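Per the submitters' processing notes, Trim Galore, Subread, featureCounts and edgeR were used with mm39; versions, roles, annotation and strand settings are not given in the sources used here. The authors deposited raw counts per gene for 2 control and 2 Lhx2 cKO libraries of E15 cortex, with gene lengths. Per the file headers, the table also holds the authors' log2 fold change and mean log2 CPM, their p-value and adjusted p-value, and its -log10. These columns were used only for a comparison. Library totals were 22294237 to 24609627 counts, and the detection floor covers counting error only. Intervals of log2 changes come from edgeR's SE, which includes the spread between libraries. That spread is mostly shared over genes: the trend over all genes entered with 38.7 prior degrees of freedom.

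CPM here is the count divided by the library total of the table, and RPKM is CPM per kilobase of the deposited length. That is a length per gene and not of the transcripts in use, so ratios between genes depend on it. All 13289 genes were tested together with edgeR 4.0.16 in R 4.3.3 (TMM, filterByExpr with a minimum count of 10, glmQLFit and glmQLFTest, no covariate); 1 gene was removed by the filter. Two-sided p-values were adjusted over 13288 genes (Benjamini-Hochberg). SE is the absolute log2 fold change over the square root of F. An exact permutation test of 2 against 2 libraries cannot go below p = 0.333 and was not run. A chi-square of 13.9 (control) and 14.3 (Lhx2 cKO) per degree of freedom set replicates of a group apart beyond sampling noise. Exon overlaps are from GENCODE M21, whose exon lengths equal the deposited length for 39 of the 41 genes. Of the 41, 13 share exon bases with another gene, with the largest share for Gsk3a (28.3%). They include the called genes Wnt5a (4.58%), Tcf7l1 (4.56%) and Vangl1 (0.112%).

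The members and gene lists were chosen with earlier results of these data known. Every analysed member is named. Library values and tests were given in full for called members that moved by 0.5 or more on the log2 scale. They were also given for the most abundant called member of each role. Other pathway genes were named by the 5 smallest p in each direction. Celsr3, Scrib, Ptk7 and Daam2 were named only as further polarity genes, and Nkd2 only as the homologue of Nkd1, without results under the alternatives. Alternatives were RLE factors, library totals alone, no filter, a mean count of at least 50, DESeq2 1.42.0, the replicate number as a block, and each library left out.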

Additional observations from a re-analysis of the deposited data

How the results depend on the processing

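With all libraries kept, 17 of the 18 calls among the Wnt pathway genes held under each of the 6 alternatives of scaling, filter, test and block; the exception was Dvl2 in DESeq2. With 1 library left out, the lone library of its group is assumed to vary like the other group. Then 12 to 18 genes were called, 7 to 9 higher (7 without control 1) and 5 to 9 lower, and their median log2 fold change ranged from -0.0602 (without control 1) to 0.0379 (without control 2). Of the other pathway genes, 12 to 18 were called, 4 to 9 higher (4 without Lhx2 cKO 2) and 7 to 11 lower, and of all genes 1633 to 2396 (1790 without control 1, 1633 without Lhx2 cKO 2). The cause was not tested. Called under all 10 alternatives were 10 genes: Wnt5b, Wnt7a, Wnt7b, Rspo2, Rspo3, Dkk3, Lrp5, Tcf7l1, Tnfrsf19 and Daam1.

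Among the genes named with results under the alternatives, sign changes occurred only for genes that were not called. Wnt3 was at -0.0016 with the replicate block and Apc at 0.001 with a minimum mean count of 50, which removed Wnt3. With 1 library left out, log2 fold changes ranged from -0.357 to 0.313 for Wnt3, -0.102 to 0.536 for Lgr4, -0.0013 to 0.177 for Axin2, -0.320 to 0.0282 for Sfrp2, -0.0602 to 0.0379 for Apc, -0.330 to 0.0225 for Znrf3, -0.0012 to 0.482 for Lef1, -0.0427 to 0.173 for Ryk and -0.153 to 0.0054 for Dvl1. Whether libraries with the same replicate number share a litter or batch is not given in the labels. Deviations of replicate 1 from replicate 2 correlated at -0.013 across genes between the groups, which cannot decide this. With the replicate block 18 pathway genes, 19 other pathway genes and 2874 of all genes were called. SEs were 0.176 to 0.433 for the 12 genes under 10 CPM and 0.094 to 0.172 for the other 29.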

Other observations

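In the authors' deposited table, 18 of the 41 Wnt pathway genes had an adjusted p under 0.05, and all 18 were also called here. Both results come from the same counts, so this match is not independent support. The authors' deposited table marks 7 of the 41 as up and 3 as down. The rest are marked NS, among them Lrp5, Wnt7a, Wls, Dvl2, Dvl3, Vangl2, Prickle1 and Daam1, whose adjusted p there was under 0.05. The largest of their absolute log2 fold changes there was 0.54 (Lrp5). The smallest among the genes marked up or down was 0.62 (Prickle2). The authors' log2 fold changes had the sign found here for all 41, differing by at most 0.01.

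Among the 41 genes, the smallest change that was called was that of Dvl2 (log2 fold change -0.29, SE 0.105) and the largest that was not called was that of Wnt4 (0.59, SE 0.358). Of the 12 genes under 10 CPM, 5 were called, and of the other 29 genes 13 were, beside 20.8% of all genes tested. That share was not split by CPM, so these counts cannot be set against genes of like abundance.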
